A study of Mus musculus with 22 samples.

Results

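The mouse mitochondrial genome is a small circular DNA that carries 37 genes, and every row of the count table placed on chrM belonged to it. These were 13 protein-coding genes, 2 ribosomal RNA genes and 22 transfer RNA genes, out of 55487 genes in the table. The rows were picked by their position on chrM, and this part was chosen with earlier results of these data known. Start, end and strand of all 37 were identical to those of GENCODE M21. The counts come from 22 poly-A RNA libraries of soleus, a calf muscle rich in slow fibres, from male mice.

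The genotypes in the labels were WT and TRa1 KO, a knockout of thyroid hormone receptor alpha 1 (here KO). Treatment was with vehicle or with T3 (triiodothyronine, the form of thyroid hormone that binds the receptor). The groups held 5 WT vehicle, 6 WT T3, 4 KO vehicle and 7 KO T3 libraries. Strain, age, dose and duration of T3 are not given in the labels, which also leave unsaid whether the receptor was deleted in muscle only or in all tissues. Nor do they tie libraries to separate animals, so the p-values rest on a spread between samples that may be technical.

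Both strands of mitochondrial DNA are transcribed into long precursors by the polymerase Polrmt with the factor Tfam. The precursors are cut mainly at the tRNAs that lie between the other genes. The mRNAs encode core subunits of respiratory complexes I, III and IV and of ATP synthase, while all other subunits come from nuclear genes. Thyroid hormone is known to raise mitochondrial content and oxidative capacity in muscle.

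Total counts ranged from 14542548 to 75766782 per library. CPM are counts scaled to library size after TMM, a normalisation that matches libraries over most genes. Earlier results of these data had 5 T3 libraries apart from the rest. They were WT T3 replicates 1, 3 and 5 together with replicates 2 and 3 of KO T3. WT T3 replicate 5 also had the lowest length index, the log2 ratio of counts on long to short nuclear genes, at -1.02 against -0.11 to 0.54 in the other 21. Thra, which encodes the receptor, ranged from 70.8 to 90.6 CPM in WT vehicle and from 44.2 to 53.6 in KO vehicle, but its row does not separate the alpha 1 product from others. Summed slow fibre markers ranged from 18393 to 34636 CPM in the 11 WT libraries and from 45788 to 62028 in the 11 KO libraries. Fast fibre markers ranged from 27401 to 52981 CPM in WT and from 11917 to 28991 in KO. The part of fibre type in any genotype difference below was not tested. In bulk tissue, fewer mitochondria-rich cells and less mitochondrial RNA per cell cannot be told apart.

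Of the 13 mRNAs, 5 drew 40 to 219 counts over all 22 libraries and mt-Nd3 drew 7285, where each of the other 7 drew 5549900 or more. Sequences are shown for 2 of the low genes and for mt-Co1 because stretches of all of them recur in nuclear pseudogenes, which bears on how their counts can be read. The genes mt-Co3 (cytochrome oxidase subunit 3), mt-Atp6 (an ATP synthase subunit), mt-Co2 (cytochrome oxidase subunit 2), mt-Nd3 and mt-Nd4l (complex I subunits) have near-identical pseudogene copies side by side on the minus strand of chromosome 1. The first 51 bases, the length of a read, of mt-Co3 (mm10 chrM:8607-8657, plus strand) and of mt-Nd3 (chrM:9459-9509, plus strand) are set against the copies Gm28437 (chr1:24613921-24613971, minus strand) and Gm28438 (chr1:24613069-24613119, minus strand), all from GENCODE M21 transcripts. The third pair comes from mt-Co1, cytochrome oxidase subunit 1 (chrM:6390-6440, plus strand), and Gm29216 (chr1:24616138-24616188, minus strand). Capitals mark bases that differ within a pair, and the mt-Co3 pair has none.
mt-Co3: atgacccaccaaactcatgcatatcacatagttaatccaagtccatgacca
Gm28437: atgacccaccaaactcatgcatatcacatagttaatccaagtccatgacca
mt-Nd3: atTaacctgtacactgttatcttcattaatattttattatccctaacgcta
Gm28438: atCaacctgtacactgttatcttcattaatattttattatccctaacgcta
mt-Co1: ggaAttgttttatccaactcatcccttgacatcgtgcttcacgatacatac
Gm29216: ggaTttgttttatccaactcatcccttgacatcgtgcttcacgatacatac
Counted from the first base of the mitochondrial gene, the substitutions are T3C in mt-Nd3 and A1066T in mt-Co1.

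The 7 annotated copies lie at chr1:24611535-24616197 on mm10, and all are unprocessed pseudogenes. Gm28437 matched mt-Co3 at 783 of 783 aligned bases, Gm10925 matched mt-Atp6 at 678 of 678, and Gm28661 matched mt-Co2 at 681 of 681. Gm28439 matched mt-Nd4 at 876 of 876, and Gm10222 matched mt-Nd4l at 294 of 294. Gm28438 matched mt-Nd3 at 344 of 345 and Gm29216 matched mt-Co1 at 482 of 483. A read that covers no differing base matches both places equally well, while a read over T3C or A1066T can be placed. A mate outside a copy does not by itself place the pair, because it can fall in a neighbouring copy. Between Gm28437 and Gm10925, for example, lie only 2 bases.

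Every 51-base window of the chrM genes was looked up in all nuclear transcripts of GENCODE M21. Windows shared with a nuclear transcript made up all of mt-Co2, 99.9% of mt-Co3, 99.5% of mt-Atp6, 98.8% of mt-Nd4l and 98.0% of mt-Nd3. Over the 22 libraries these genes drew 214, 219, 160, 40 and 7285 counts in that order. The genes mt-Nd1, mt-Nd6 and mt-Cytb shared no window and drew 16967734, 5549900 and 24819078 counts. The complex I subunit mt-Nd4 shared 62.2% and still drew 10345040 counts, and mt-Co1 shared 50.6% and drew the most, 54094673. mt-Atp8, an ATP synthase subunit, drew 56 counts and had no window shared with an annotated transcript. It lies between mt-Co2 and mt-Atp6, and the stretch between the copies of those genes is not annotated.

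The gene mt-Atp8 is read from the same messenger as mt-Atp6, and their reading frames overlap by 43 bases (mm10 chrM:7927-7969, plus strand). Capitals mark the first codon of mt-Atp6 and the last codon of mt-Atp8.
mt-Atp8 and mt-Atp6 overlap: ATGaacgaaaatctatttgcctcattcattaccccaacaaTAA
In the row of copies an unannotated stretch of 233 bases (chr1:24614652-24614884) lies between Gm10925, the mt-Atp6 copy, and Gm28661, the mt-Co2 copy. Its sequence was not analysed here, so whether it matches mt-Atp8 is not known. How reads with more than 1 match were counted is not given in the sources used here, and its part in the low counts was not tested.

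**Figure D1:**
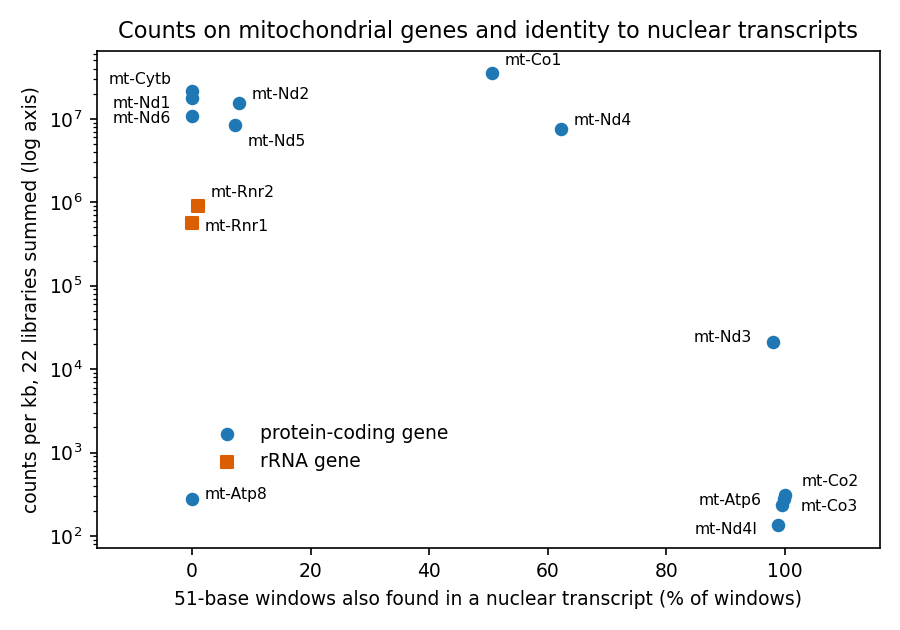
Counts per kb of gene, summed over the 22 libraries (log axis), against the percentage of 51-base windows found in a nuclear transcript, for the 13 protein-coding genes (circles) and 2 rRNA genes (squares). The 5 genes with 98.0% or more of their windows shared sit at the lower right with 40 to 7285 counts in total. mt-Atp8, with no window in an annotated nuclear transcript, sits at the lower left.

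The copies drew more counts than the mitochondrial genes they match for 4 of 7 pairs, with 26201 on Gm28437 against 219 on mt-Co3. Gm10925 drew 29972 counts against 160 on mt-Atp6, Gm28661 drew 29410 against 214 on mt-Co2, and Gm10222 drew 2560 against 40 on mt-Nd4l. Gm28438 drew 4409, against 7285 on mt-Nd3. In WT vehicle Gm10925 stood at 48.7 ± 9.0 CPM (SD, n = 5), in WT T3 at 52.6 ± 23.6 (n = 6), in KO vehicle at 32.8 ± 13.9 (n = 4) and in KO T3 at 30.6 ± 10.0 (n = 7). No copy passed edgeR's test in any comparison, with 0.0795 as the smallest adjusted p. A read inside a stretch without a differing base, with its mate also inside, cannot be assigned to copy or mitochondrial gene by sequence alone.

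Over all libraries 98.487% of chrM counts fell on the 13 protein-coding genes, 1.362% on the 2 rRNA genes and 0.151% on the 22 tRNA genes. Within the chrM counts of WT vehicle, mt-Co1 took 37.3 ± 1.66%, mt-Cytb, the cytochrome b of complex III, 17.8 ± 1.32%, and the complex I subunits mt-Nd5 and mt-Nd1 11.5 ± 0.44% and 11.1 ± 0.57% (SD, n = 5). mt-Nd2 took 9.98 ± 0.80%, mt-Nd4 7.19 ± 0.30% and mt-Nd6 3.92 ± 0.43%. These 7 messengers hold most chrM counts of the libraries. In the other groups mt-Co1 took a similar share, at 36.2 ± 1.6% in WT T3 (n = 6), 38.7 ± 1.45% in KO vehicle (n = 4) and 38.0 ± 1.39% in KO T3 (n = 7). The mt-Nd5 share ran from 11.02 to 12.13% in WT vehicle and from 4.42 to 10.89% in WT T3, without overlap. The lowest value, 4.42%, came from WT T3 replicate 5. In KO it ran from 10.24 to 11.95% with vehicle and from 8.74 to 10.82% with T3, with overlap. The mt-Nd1 share was 12.5 ± 0.69% in WT T3, and its range of 11.29 to 13.29% overlapped the 10.38 to 11.92% of WT vehicle. No test was run on these shares.

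Levels were compared between genes per kb of full gene length. Windows shared with nuclear transcripts were not taken out. They made up 50.6% of mt-Co1, 62.2% of mt-Nd4 and 98.0% or more of mt-Nd3, mt-Co2, mt-Atp6 and mt-Co3. Their part in the order below was not tested. In WT vehicle mt-Co1 led with a median of 57422 CPM per kb and a range of 47851 to 65001. mt-Cytb followed with a median of 39464 and a range of 26804 to 46633, which did not overlap mt-Co1. Then came mt-Nd1 with a median of 30130 CPM per kb, mt-Nd2 with 22234, mt-Nd6 with 18761, mt-Nd5 with 16593 and mt-Nd4 with 13068. Each of these ranges overlapped its neighbour's, from 20469 to 31735 for mt-Nd1 down to 10412 to 13484 for mt-Nd4. The rRNA genes, which lie nearest the start of the precursor and have no long poly-A tail, stood far lower at medians of 1312 for mt-Rnr2 and 842 for mt-Rnr1. mt-Nd3 had a median of 26.1 CPM per kb, and mt-Co2, mt-Atp6 and mt-Co3 had 0.55, 0.59 and 0.35.

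Among the 22 tRNA genes, mt-Te (for glutamate) drew 93748 counts over the 22 libraries, mt-Tp (proline) 55523, mt-Tl1 (leucine) 22147 and mt-Tm (methionine) 13315. The gene mt-Te lies directly beside mt-Nd6 on the same strand and mt-Tp on that strand near the control region. No library held a count on mt-Ts1, mt-Td or mt-Tk, which allows up to 3 counts in each. mt-Tf, mt-Ty and mt-Tv held 3, 7 and 86 counts in all. The tRNA genes are 59 to 75 bases long, hardly more than a read, and mature tRNAs carry no poly-A tail. mt-Ts1, mt-Td, mt-Tk, mt-Tg and mt-Tr lie between mitochondrial genes whose copies stand side by side on chromosome 1. The unannotated stretches between those copies were not searched. Their part in the counts on these tRNAs was not tested.

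Of the 37 genes, 29 passed the filter on low counts and were tested. They were the 7 messengers with high counts, mt-Nd3, mt-Co2, mt-Atp6 and mt-Co3, both rRNAs and 16 tRNAs. Too low for a test were mt-Atp8, mt-Nd4l, mt-Tf, mt-Tv, mt-Ty, mt-Ts1, mt-Td and mt-Tk.

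The 37 genes together took 23.9, 24.3, 19.3, 22.6 and 18.9% of all counts in the 5 WT vehicle libraries. This share covers counts placed on chrM. Counts on the nuclear copies are left out, and the low-count messengers add almost nothing to it. In WT T3 the share ranged from 11.2 to 29.5% with a median of 22.8%. The 4 KO vehicle libraries stood at 22.7, 15.6, 16.3 and 15.9%. In KO T3 the share ranged from 13.2 to 24.4% with a median of 16.1%. Of the 11 KO libraries, 8 lay below all WT libraries except WT T3 replicate 5, and both T3 groups were wide.

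Means were 21.8 ± 2.56% in WT vehicle, 22.4 ± 6.98% in WT T3, 17.6 ± 3.40% in KO vehicle and 17.9 ± 4.21% in KO T3 (SD, n = 5, 6, 4 and 7). With T3 the mean differed by 0.628 percentage points in WT and by 0.294 in KO, both far inside the spread between libraries. KO means were lower by 4.18 points under vehicle (-4.179) and by 4.51 under T3 (-4.513), and the ranges overlapped in both cases. Without the 5 T3 libraries apart, the T3 differences were -0.298 points in WT and -2.048 in KO, so the sign turned without those libraries. Single libraries turned it too, with -0.786 to 2.87 points in WT and -0.795 to 1.986 in KO when each library was left out, and no direction was read from the T3 differences. The genotype difference under T3 was then -5.93 points, and it ran from -6.755 without WT T3 replicate 5 to -3.1 without WT T3 replicate 1.

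**Figure D2:**
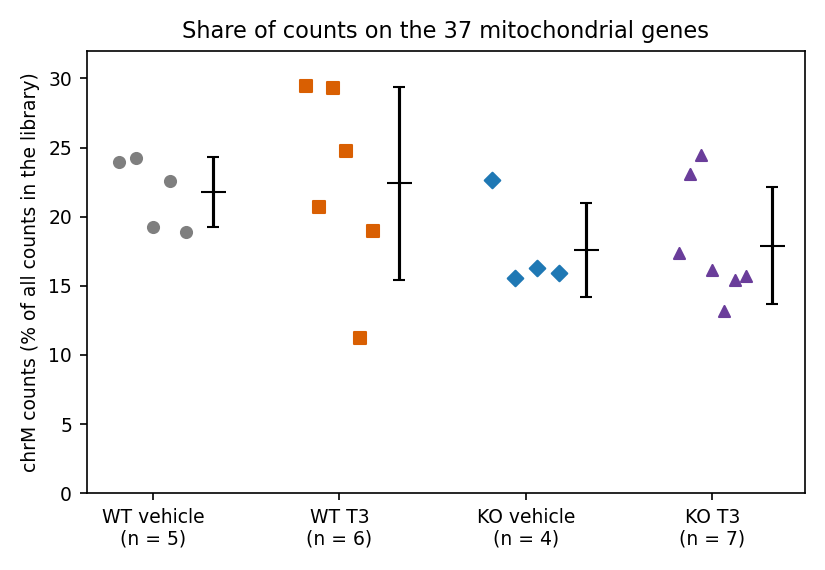
Percentage of all counts that fell on the 37 mitochondrial genes, 1 point per library, with group mean and SD as bars beside the points. WT T3 spans 11.2 to 29.5%, and 3 of 4 KO vehicle libraries lie between 15.6 and 16.3%.

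The first question was whether T3 changed mitochondrial transcripts in WT soleus. No chrM gene was called by edgeR's quasi-likelihood test, 0 of 29 against 3.31% of the 15082 genes tested, where called means an adjusted p below 0.05. At an unadjusted p below 0.05 there were 6, of which 5 were higher and 1 lower, against 17.2% of all genes. DESeq2 called 1, mt-Tg, against 5.58% of all genes, and limma voom called 0. The fitted log2 fold changes had a median of 0.205 over the 29 genes, against 0.011 over all genes.

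The 7 high-count messengers lay close to 0 with T3 in WT, between -0.14 for mt-Nd5 and 0.205 for mt-Nd2 (SE 0.225 to 0.321). Without WT T3 replicate 5 all 7 were positive, from 0.085 to 0.38, and none was called. In mt-Co1, the values were 100430, 97860, 73930, 88717 and 74560 CPM in WT vehicle. WT T3 ranged from 38675 to 118620 CPM with a median of 85697, so that T3 libraries lay on both sides of the vehicle range. The fitted difference of mt-Co1 was -0.02 ± 0.24 (SE, edgeR adjusted p = 0.987).

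Both rRNAs were on the positive side with T3 in WT. mt-Rnr1, the small ribosomal RNA, stood at 804, 827, 522, 986 and 592 CPM in WT vehicle and at 696 to 1149 with a median of 1082 in WT T3. Its fitted difference was 0.44 ± 0.22 (edgeR adjusted p = 0.324). mt-Rnr2, the large ribosomal RNA, gave 0.39 ± 0.19 (adjusted p = 0.301). Neither passed the test, and the groups overlapped in both genes.

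All 16 tRNAs had positive fitted values with T3 in WT, with a median of 0.455, and none was called. The smallest adjusted p was that of mt-Tg (glycine), 0.119 by edgeR, at a log2 difference of 1.59 ± 0.55. mt-Tg rested on few counts, at 0.19, 0.20, 0.44, 0.95 and 1.17 CPM in WT vehicle and 1.08 to 3.04 in WT T3. mt-Ts2 (serine) had 2.19 ± 0.77 (adjusted p = 0.129), and ranged from 0.04 to 1.01 CPM in WT vehicle and from 0.62 to 4.89 in WT T3. Among the low-count messengers mt-Nd3 had 0.58 ± 0.24 (adjusted p = 0.21) and mt-Atp6 -0.81 ± 0.36 (adjusted p = 0.241).

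In KO soleus edgeR again called 0 of 29 with T3, against 2.72% of all genes, and DESeq2 and limma voom called 0. At an unadjusted p below 0.05 there was 1, mt-Rnr1, against 13.6% of all genes. The high-count messengers ranged from -0.18 for mt-Nd5 to 0.06 for mt-Nd1. Without KO vehicle replicate 1 all 7 were positive, from 0.119 to 0.331, and none was called. mt-Rnr1 stood at 527, 409, 453 and 399 CPM in KO vehicle and at 468 to 1339 with a median of 617 in KO T3. Its fitted difference was 0.63 ± 0.24 (edgeR adjusted p = 0.185), and the highest value, 1339, came from replicate 2, where the other 6 libraries ran from 468 to 746. Of the 16 tRNAs, 4 had positive and 12 negative fitted values, with a median of -0.352.

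The difference between the T3 responses, KO minus WT, was tested in the same fit. No chrM gene was called, against 0.00663% of all genes, and limma voom and DESeq2 called 0 as well. At an unadjusted p below 0.05 there were 3, all lower, against 2.46% of all genes. All 16 tRNAs had negative values, with a median of -0.76, and the 7 high-count messengers ran from -0.161 to 0.068. Their side depended on single libraries, at 0.021 to 0.336 without KO vehicle replicate 1 and at -0.364 to -0.101 without WT T3 replicate 5. The tRNA with the largest value was mt-Ts2 at -2.69 ± 1.01 (adjusted p = 1).

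**Figure D3:**
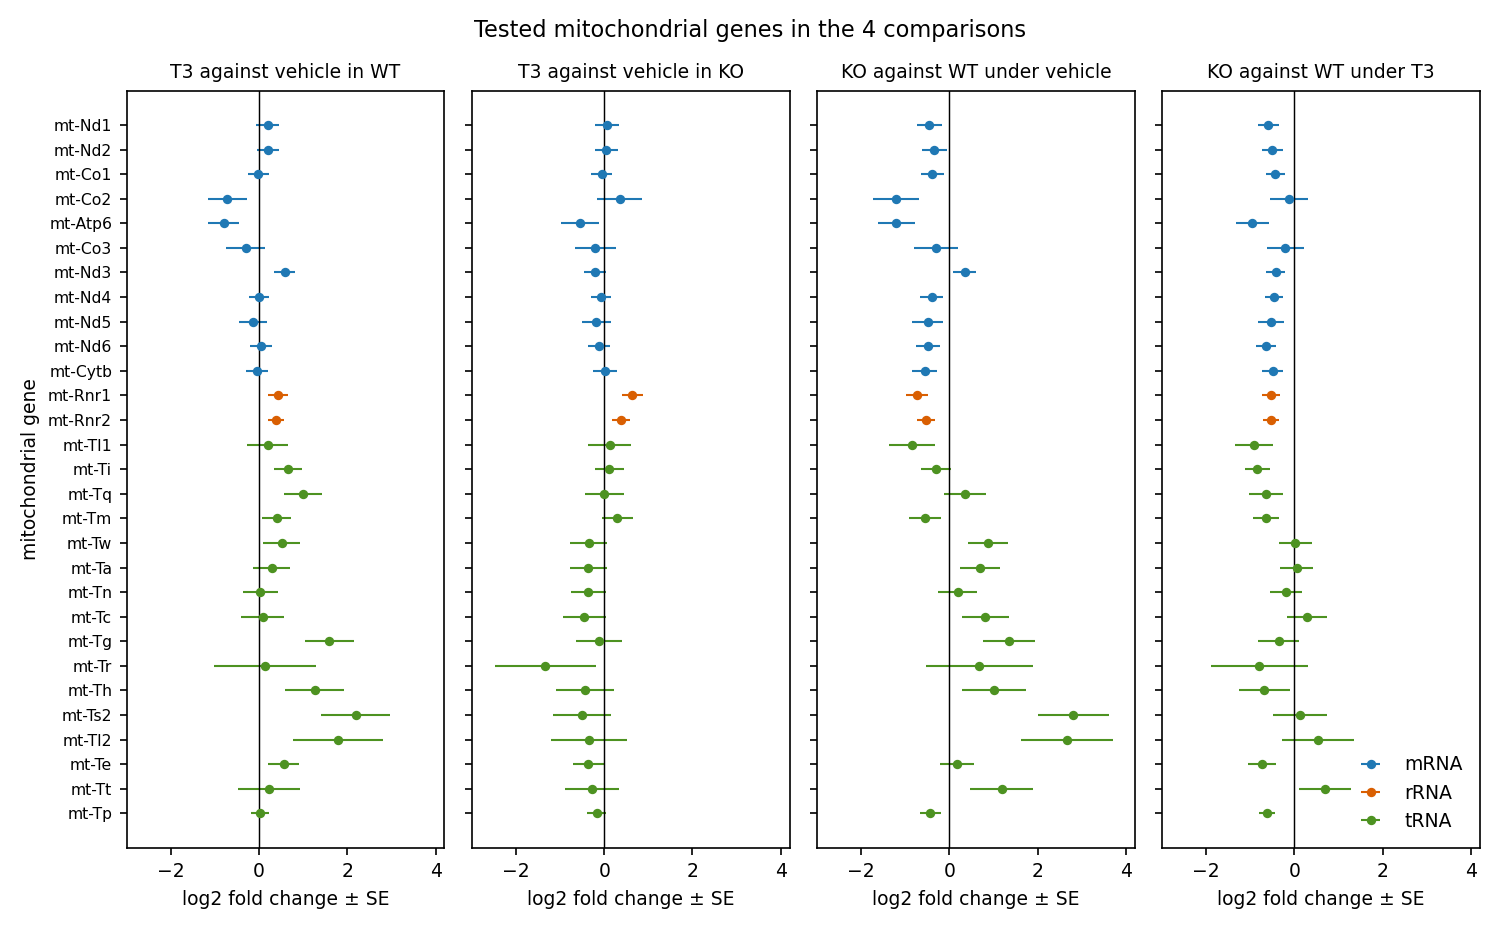
Fitted log2 fold changes (points) with SE (bars) of the 29 tested mitochondrial genes in the 4 comparisons, with mRNAs in blue, rRNAs in orange and tRNAs in green. The 7 high-count mRNAs and both rRNAs lie left of 0 in both comparisons of KO with WT, and low-count tRNAs such as mt-Ts2 have the widest bars.

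Receptor loss was compared under vehicle and under T3. Under vehicle edgeR called 0 of 29 chrM genes, against 3.08% of all genes, while 7 had an unadjusted p below 0.05 (3 higher, 4 lower) against 14.1%. DESeq2 called 1, mt-Ts2, against 4.83% of all genes, and limma voom called 0. All 7 high-count messengers had negative values, from -0.563 for mt-Cytb to -0.34 for mt-Nd2, with SE of 0.251 to 0.359. The median over the 29 genes was -0.308, against -0.021 over all genes.

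mt-Cytb showed how 1 library shaped this comparison. It stood at 53348, 45147, 35284, 45536 and 30663 CPM in WT vehicle. In KO vehicle it stood at 42932, 22914, 23947 and 23944 CPM. Replicate 1 of KO vehicle lay inside the WT range and the other 3 lay below it. The fitted difference was -0.56 ± 0.29 (edgeR adjusted p = 0.386). Without that library the 7 messengers ran from -0.831 to -0.522, and edgeR called none of them. It then called 1 of 29 chrM genes, mt-Ts2 at 3.15 ± 0.80 (adjusted p = 0.0303), against 3.49% of all genes.

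The rRNAs were also on the negative side in KO vehicle, mt-Rnr1 at -0.74 ± 0.25 (edgeR adjusted p = 0.126) and mt-Rnr2 at -0.53 ± 0.21 (adjusted p = 0.22). Among the tRNAs 12 of 16 had positive values with a median of 0.688, against 0 of 7 high-count messengers. With the sample number of the labels in the fit, a term described further on, 9 of 16 were positive with a median of 0.171. mt-Ts2 stood at 0.22, 0.04, 0.24, 0.37 and 1.01 CPM in WT vehicle and at 0.51, 3.18, 4.00 and 3.30 in KO vehicle. Its difference of 2.81 ± 0.81 had the smallest adjusted p, 0.061. Again it was KO vehicle replicate 1 that lay inside the WT range.

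Under T3 edgeR also called 0 of 29 chrM genes, against 5.57% of all genes. The 13 genes with an unadjusted p below 0.05 were all lower in KO, against 17.6% of all genes in either direction. DESeq2 called 3 lower, mt-Rnr2, mt-Ti (isoleucine) and mt-Tp, against 7.51% of all genes called, and limma voom called 0. The median was -0.501 over the 29 genes, with 23 of 29 negative, against -0.001 over all genes. The 7 high-count messengers were again all negative, from -0.639 for mt-Nd6 to -0.433 for mt-Co1.

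mt-Tp came nearest to the threshold, with a difference of -0.62 ± 0.19 and an edgeR adjusted p of 0.0549. It ranged from 38.8 to 121 CPM with a median of 95.7 in WT T3 and from 49.8 to 67.5 with a median of 62.2 in KO T3. All KO T3 libraries lay in a narrow band, and a single WT T3 library, replicate 5, lay below it. mt-Nd6 ranged from 6317 to 12753 CPM in WT T3 and from 3951 to 9023 in KO T3. Its difference was -0.64 ± 0.23 (adjusted p = 0.111).

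The genotype counts under T3 hinged on WT T3 replicate 5. Without it, 7 of 29 chrM genes were called lower by edgeR, against 3.83% of all genes called lower. They were mt-Nd1, mt-Nd2, mt-Co1, mt-Nd5, mt-Rnr2, mt-Tm and mt-Tp, and the 7 high-count messengers ran from -0.762 to -0.599. That library held 4845 CPM of mt-Nd5, where the other 5 WT T3 libraries held 19502 to 35136. Without KO T3 replicate 2, which had the highest rRNA of its group, mt-Rnr1 and mt-Rnr2 were called lower in KO under T3, at -0.79 ± 0.16 (edgeR adjusted p = 0.00343) and -0.71 ± 0.14 (adjusted p = 0.00326), 2 of 29 against 4.78%. Without all 5 T3 libraries apart, 5 were called lower, mt-Nd2, mt-Nd4, mt-Rnr1, mt-Rnr2 and mt-Tp, against 4.33% of all genes called.

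The share of rRNA within the chrM counts was 1.16 ± 0.14% in WT vehicle, 1.66 ± 0.60% in WT T3, 1.08 ± 0.13% in KO vehicle and 1.47 ± 0.27% in KO T3 (SD, n = 5, 6, 4 and 7). Single values were 1.07, 1.20, 0.97, 1.25 and 1.32% in WT vehicle, against 1.25 to 2.85% with a median of 1.49% in WT T3. KO vehicle stood at 0.89, 1.15, 1.08 and 1.19%, against 1.12 to 1.92% with a median of 1.53% in KO T3. T3 libraries were mostly above vehicle libraries, and the ranges overlapped in both genotypes. The value of 2.85% came from WT T3 replicate 5. The tRNA share was 0.127 ± 0.047% in WT vehicle, 0.160 ± 0.019% in WT T3, 0.167 ± 0.028% in KO vehicle and 0.149 ± 0.047% in KO T3.

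mt-Nd6, a complex I subunit and the only messenger of the minus strand, ends head-on against mt-Nd5. The last 30 bases of both are shown because they share 14 bases, in capitals, on opposite strands (mm10 chrM:13536-13565, plus strand, and chrM:13552-13581, minus strand).
mt-Nd5 end: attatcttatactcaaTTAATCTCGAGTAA
mt-Nd6 end: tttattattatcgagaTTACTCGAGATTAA
The kit marks the strand of RNA, but the strand setting of the counting is not given in the sources used here.

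Per 100 counts on the other 12 messengers, mt-Nd6 held 4.34, 3.93, 4.47, 4.52 and 3.41 counts in WT vehicle. In WT T3 it held 3.66 to 7.67 with a median of 3.96. In KO vehicle it held 4.54, 4.01, 3.47 and 3.75, and in KO T3 3.43 to 4.09 with a median of 3.76. Except for WT T3 replicate 5, at 7.67, all libraries lay between 3.41 and 4.54. By two-sided exact permutation tests of the log2 ratio, T3 differed from vehicle by 0.092 ± 0.18 in WT (SE, p = 0.844) and by -0.066 ± 0.089 in KO (p = 0.421). KO differed from WT by -0.068 ± 0.112 under vehicle (exact p = 0.579) and by -0.225 ± 0.167 under T3 (exact p = 0.0728). Adjusted over the 4 tests these p-values were 0.844, 0.772, 0.772 and 0.291, so no difference passed an adjusted p below 0.05. Without WT T3 replicate 5 the differences were -0.07 with T3 in WT and -0.064 in KO under T3, so that the sign of the first and most of the size of the second rested on that library. Without KO vehicle replicate 1 they were 0.004 with T3 in KO and -0.138 in KO under vehicle, and without KO vehicle replicate 3 the last was -0.009.

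Each label holds a sample number from 1 to 22 whose meaning is not given, and groups were spread unevenly over it. Of the first 11 numbers 7 were WT, and of the last 11 numbers 7 were KO. The relation of chrM values to the number was examined after the values had been seen. The chrM share fell with the number over the 22 libraries, with Pearson r = -0.639 (permutation p = 0.0016) and Spearman rho = -0.684 (permutation p = 0.00076). Without the 2 libraries farthest from the middle number r was -0.612. Within WT r was -0.527 (n = 11, permutation p = 0.0943) and within KO -0.733 (n = 11, permutation p = 0.0132).

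WT libraries held a share of 24.5 ± 3.88% in the first 11 numbers (SD, n = 7) and 17.9 ± 4.79% in the last 11 (n = 4). KO libraries held 21.9 ± 3.11% in the first 11 (n = 4) and 15.4 ± 1.06% in the last 11 (n = 7), where they ranged only from 13.2 to 16.3%. With the number as a linear term, the KO difference in share was -1.674 points under vehicle in place of -4.179, and -3.739 under T3 in place of -4.513. The T3 differences became 1.449 points in WT in place of 0.628, and -0.616 in KO in place of 0.294. The slope was -0.44 points per number.

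**Figure D4:**
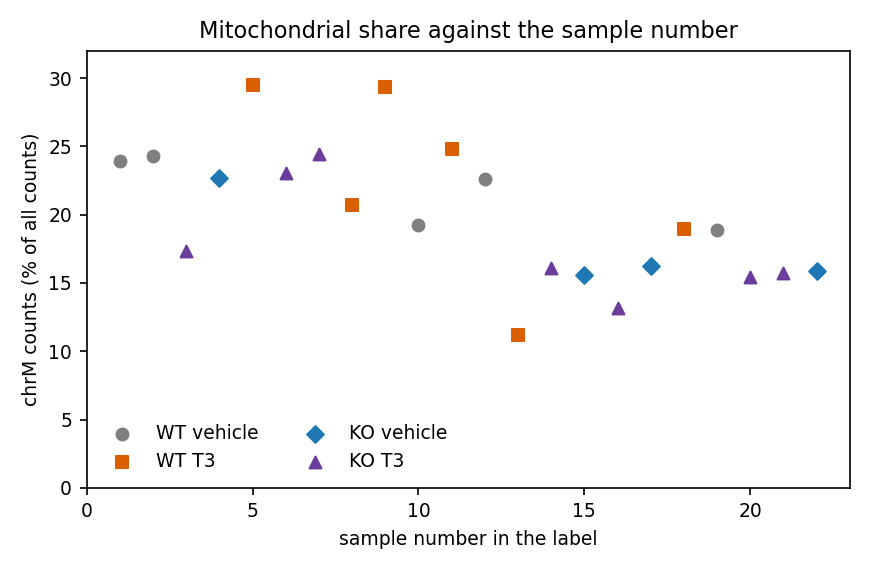
Percentage of counts on the 37 mitochondrial genes against the sample number in the label, by group. Libraries numbered 14 or higher lie between 13.2 and 19.0%, and most of the earlier ones lie above 19.0%.

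The chrM share was set against 3 further measures of the libraries, and p-values were adjusted over the 4 relations. The length index gave r = 0.551 and rho = 0.45 (permutation p = 0.00349 and 0.0369), and r = 0.46 without the 2 libraries farthest from its median. The GC index, the log2 ratio of nuclear counts on GC-rich to GC-poor genes, gave r = -0.494 and rho = -0.278 (permutation p = 0.0193 and 0.208), and r = -0.457 without its 2 farthest. Those 2 were KO T3 replicates 2 and 3, with GC indices of 0.13 and 0.24. WT T3 replicates 1 and 3, at 0.27 and 0.42, stayed in, and the next lowest index was 0.69. All of these low-GC libraries belong to the T3 libraries apart and had the highest chrM shares of their groups. The relation without all of them was not computed. Total counts gave r = -0.14 and rho = -0.137 (permutation p = 0.545 and 0.542), and r = -0.016 without the 2 farthest. Adjusted p-values for r were 0.0064 for the number, 0.00698 for length, 0.0257 for GC and 0.545 for total counts. The chrM genes have a median GC content of 35.6% against 49.7% in nuclear genes.

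Gene by gene, chrM genes ran in opposite directions with the sample number. With the number as a linear term beside the groups, edgeR called 10 of 29 chrM genes, against 1.49% of the 15082 genes. Those lower at higher numbers were 3 messengers, mt-Cytb at -0.05 log2 units per number (adjusted p = 0.0235), mt-Nd6 at -0.05 (adjusted p = 0.0156) and mt-Nd1 at -0.05 (adjusted p = 0.0445). Those higher were 7 tRNAs, mt-Tl2 (leucine), mt-Ts2, mt-Tc (cysteine), mt-Tg, mt-Ta (alanine), mt-Tw (tryptophan) and mt-Tq (glutamine). Their slopes ran from 0.09 for mt-Tq to 0.25 for mt-Tl2.

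mt-Tc had 1.37 to 8.07 CPM with a median of 5.79 in the first 11 numbers, and 7.18 to 19.2 with a median of 15.9 in the last 11. mt-Ts2 in KO libraries had 0.17 to 0.69 CPM in the first 11 numbers (n = 4) and 2.66 to 4.00 in the last 11 (n = 7), with vehicle and T3 mixed in both. mt-Cytb in KO libraries had 28093 to 43294 CPM in the first 11 numbers and 18713 to 26122 in the last 11. In KO these genes split by number without overlap, whatever the treatment. KO vehicle replicate 1, which lay inside the WT range in mt-Cytb and mt-Ts2, carries number 4, while the other 3 carry 15, 17 and 22.

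**Figure D5:**
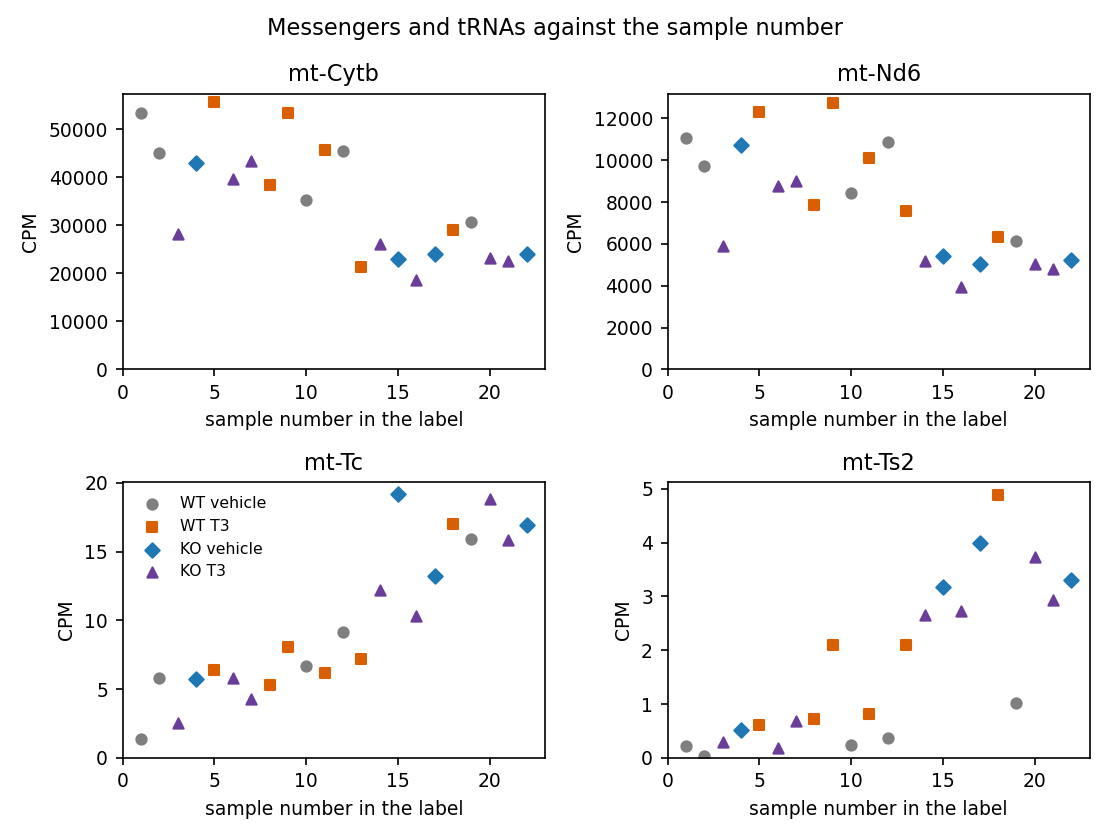
CPM of mt-Cytb, mt-Nd6, mt-Tc and mt-Ts2 against the sample number in the label, by group. The 2 messengers lie lower and the 2 tRNAs higher at high numbers, as in mt-Tc with 1.37 to 8.07 CPM in the first 11 numbers and 7.18 to 19.2 in the last 11.

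With the number in the fit, the 7 high-count messengers differed in KO under vehicle by -0.31 to -0.161, in place of -0.563 to -0.34. Under T3 they differed by -0.556 to -0.363, and mt-Nd6 was called lower at -0.56 ± 0.16 (edgeR adjusted p = 0.0356), 1 of 29 against 6.1% of all genes. The difference of mt-Ts2 in KO under vehicle fell to 2.01 ± 0.45 (adjusted p = 0.0166), 1 of 29 against 2.53%. With T3 in WT mt-Ts2 at 2.16 ± 0.42 (adjusted p = 0.00416) and mt-Tg at 1.68 ± 0.38 (adjusted p = 0.0136) were called higher, 2 of 29 against 3.79%. The direction of the messengers in KO was the same with and without the number, while their size under vehicle depended on it.

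The nuclear partners of the mitochondrial genes were followed in 5 lists. Of 74 nuclear subunits of complexes I, III, IV and V, 73 were tested. With T3 in WT, 64 of 73 had positive values with a median of 0.255, against 0.011 over all genes. WT T3 replicate 5, which had the lowest chrM share and the lowest length index, was the highest library of its group in 71 of the 73. Without it 43 of 73 were positive with a median of 0.022, while the 7 high-count mitochondrial messengers moved from a median of -0.008 to 0.129. The positive median of the nuclear subunits and its contrast with the mitochondrial messengers therefore rested on 1 library. Its length index and its subunit levels were measured side by side, and the part of the former in the latter was not tested.

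edgeR called 1 of 73 higher with T3 in WT, against 3.31% of all genes. This was Cox7a1, the muscle form of a cytochrome oxidase subunit, at 301, 249, 163, 279 and 245 CPM in WT vehicle and 299 to 1086 with a median of 435 in WT T3. The highest value came from replicate 5 and the other 5 libraries ran from 299 to 444, with 1 of them inside the vehicle range. The difference was 1.05 ± 0.24 (adjusted p = 0.0161), and 0.70 ± 0.16 without replicate 5 (adjusted p = 0.013), 1 of 73 against 3.75%. With T3 in KO the nuclear subunits had a median of 0.018 and none was called, against 2.72% of all genes. Cox7a1 had 0.75 ± 0.26 there (adjusted p = 0.13). Without WT T3 replicate 5, which enters the shared estimate of spread, it was called at 0.72 ± 0.16 (adjusted p = 0.0104), 1 of 73 against 4.64%. Without all 5 T3 libraries apart edgeR no longer called Cox7a1 with T3 in WT, against 2.94% of all genes. With T3 in KO the same omission left it called at 0.76 ± 0.17 (adjusted p = 0.0164), against 4.5% of all genes.

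Under T3, KO differed from WT by a median of -0.369 over the nuclear subunits, with 2 of 73 positive. edgeR called 4 lower, against 5.57% of all genes called. They were Cox7a1 at -0.94 ± 0.22 (adjusted p = 0.0104), the complex I subunits Ndufa1 at -0.62 ± 0.15 (adjusted p = 0.0129) and Ndufb5 at -0.52 ± 0.16 (adjusted p = 0.0477), and Atp5o of ATP synthase at -0.51 ± 0.15 (adjusted p = 0.0486). Without WT T3 replicate 5 the median was -0.139, with 14 of 73 positive. Of the 4, Cox7a1 at -0.59 ± 0.14 (adjusted p = 0.0128) and Ndufa1 at -0.45 ± 0.12 (adjusted p = 0.017) were still called, 2 of 73 against 7.66%. Without all 5 T3 libraries apart the median was -0.107 and none of the 73 was called. The mitochondrial messengers went the other way when replicate 5 was left out, from a median of -0.501 to -0.682. Under vehicle the nuclear median was -0.129 with none of 73 called, against 3.08%. Without WT T3 replicate 5 edgeR called Cox7a1 lower there at -0.618 ± 0.169 (adjusted p = 0.0344), 1 of 73 against 5.25%. Without all 5 T3 libraries apart it was called at -0.618 ± 0.174 (adjusted p = 0.0375), against 6.81%. The comparisons share libraries, so these medians are not independent of each other.

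Few genes of the machinery of mitochondrial gene expression were called. Of 11 transcription genes none was, where 0.00663 to 5.57% of all genes were called in the 5 comparisons, so that a list of this length shows little by its count. Polrmt, the polymerase, had -0.17 ± 0.29 with T3 in WT (adjusted p = 0.814) and -0.02 ± 0.26 in KO against WT under T3 (adjusted p = 0.982). Tfam, which packages the genome and is a factor in its transcription, had 0.17 ± 0.09 (adjusted p = 0.362) and 0.006 ± 0.084 (adjusted p = 0.984) in the same comparisons. Ppargc1a, a coactivator of mitochondrial biogenesis, had -0.15 ± 0.24 (adjusted p = 0.809) and -0.25 ± 0.22 (adjusted p = 0.637).

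Of 32 genes for mitochondrial RNA processing, stability and decay, 30 were tested and none was called, at the same shares of all genes. Slirp and Lrpprc form the complex that stabilises mitochondrial mRNAs, and in KO under T3 they had -0.48 ± 0.15 (adjusted p = 0.0545) and -0.22 ± 0.09 (adjusted p = 0.2). Without WT T3 replicate 5, 3 of 30 were called in KO under T3, against 7.66% of all genes. They were Lrpprc, lower at -0.29 ± 0.08 (adjusted p = 0.0359), the RNA methyltransferase Nsun3, lower at -0.41 ± 0.08 (adjusted p = 0.00334), and Hsd17b10, a subunit of the enzyme that cuts tRNAs at their 5′ end, higher at 0.30 ± 0.09 (adjusted p = 0.0301). With T3 in WT the same omission gave 2 of 30, against 3.75%, with signs opposite to those in KO under T3. Nsun3 was higher at 0.325 ± 0.092 (adjusted p = 0.0491) and Hsd17b10 lower at -0.436 ± 0.092 (adjusted p = 0.00707). Without KO vehicle replicate 1, the helicase Supv3l1 was called lower in KO under vehicle at -0.55 ± 0.14 (adjusted p = 0.0333), 1 of 30 against 3.49%.

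Of 16 genes for replication and upkeep of mitochondrial DNA, 1 was called, Polg, the catalytic subunit of its polymerase, higher in KO under T3 at 0.38 ± 0.10 (adjusted p = 0.0233), against 5.57% of all genes. Without the 5 T3 libraries apart it had 0.26 ± 0.08 (adjusted p = 0.073). Of 12 regulators of biogenesis, 1 was called, the nuclear receptor Esrrb, lower with T3 in WT at -0.45 ± 0.12 (adjusted p = 0.0392), against 3.31% of all genes. Without WT T3 replicate 5 it had -0.36 ± 0.11 (adjusted p = 0.06). Without the 5 T3 libraries apart edgeR called Ppard, of the same list, higher with T3. Its differences were 0.615 ± 0.132 in WT (adjusted p = 0.0143) and 0.795 ± 0.125 in KO (adjusted p = 0.00105). The shares of all genes called were 2.94% and 4.5%. In KO under vehicle Ppard was then called lower at -0.614 ± 0.125 (adjusted p = 0.00612), against 6.81%.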

How the data were processed

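Poly-A RNA libraries from soleus were made with a strand-marking kit and read as 51-base pairs, per the labels' protocols. The deposited table gives whole-number read counts by gene, unscaled. Per the submitters' processing notes, STAR 2.7.3a, featureCounts 1.6.4, edgeR 3.26.8 and build mm10 were used. For annotation release, strand setting and multiply matching reads, nothing is given in the sources used here.

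All 22 libraries were fitted together over the 15082 genes that passed filterByExpr of edgeR 4.0.16 (R 4.3.3, minimum count 10), with TMM scaling, the quasi-likelihood test and Benjamini-Hochberg adjustment over all genes. Called means an adjusted p below 0.05. Alternatives were other scalings, filters, DESeq2 1.42.0, limma 3.58.1 voom and left-out libraries. On simulated data for T3 in WT (14882 genes), 68% of 197 genes with a true log2 change of 1 were recovered, and 2.9% of calls were false. Single values were tested by exact permutation, and correlations with 100000 resamples (scipy 1.17.1). Windows of 51 bases were matched exactly to GENCODE M21 transcripts.

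Members and lists were chosen with earlier results of these data known. The rule named all chrM genes, the called members of each list with up to 4 of the smallest adjusted p, and Polrmt, Tfam, Lrpprc, Slirp and Ppargc1a. List members that were not called are mostly left out. The lists covered transcription, RNA processing, replication, biogenesis and nuclear subunits. Counting intervals and floors of 3 counts cover counting error only.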

Additional observations from a re-analysis of the deposited data

Results flagged for a closer look

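In 4 groups and 13 measures, 52 sets of libraries were checked for a value far from the rest of its group, and 10 were found. Chance alone gives about 1 in 20 such sets, and the measures share libraries. In KO vehicle, replicate 1 stood apart in the chrM share of counts, at 22.7% where the other 3 lay between 15.6 and 16.3%. The same library stood apart in mt-Cytb, at 42932 CPM against 22914 to 23947, and in mt-Nd6, at 10707 against 5053 to 5430. It also stood apart in mt-Co1, at 91598 CPM against 56611 to 60055, in mt-Nd1, at 28926 against 14991 to 16540, and in mt-Nd5, at 29760 against 14642 to 16487.

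In WT T3, replicate 5 stood apart in the rRNA share of chrM counts, at 2.85% against 1.25 to 1.6%, and in mt-Nd6 per 100 counts on the other messengers, at 7.67 against 3.66 to 4.16. In KO T3, replicate 2 stood apart in both rRNAs, with mt-Rnr1 at 1339 CPM against 468 to 746 and mt-Rnr2 at 3043 CPM against 1302 to 1869. The causes were not tested.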

How the results depend on the processing

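The count of called chrM genes was 0 of 29 in every comparison and moved with the processing in 3 of 5. Brackets give the share of all genes called in the same fit. With T3 in WT it was 1 by DESeq2 (5.58%) and 2 with the sample number in the fit (3.79%). In KO against WT under vehicle it was 1 with library totals only (3.85%) and 1 by DESeq2 (4.83%). It was 3 without the 5 T3 libraries apart (6.81%) and 1 with the sample number (2.53%). Without a filter it was 1, and with only the 2 groups compared 2. Leaving out each library in turn gave 0 to 2. In KO against WT under T3 it was 3 by DESeq2 (7.51%), 5 without the 5 T3 libraries apart (4.33%) and 1 with the sample number (6.1%). Scaling from nuclear genes gave 1, and so did no filter. Leaving out each library gave 0 to 7, with 7 without WT T3 replicate 5 (7.66%). Where no bracket stands, the share is not given here and the count cannot be set against all genes. T3 in KO and the difference of responses gave 0 under all alternatives run. Library totals moved the median of all genes to 0.13 for KO under vehicle and 0.156 under T3, with the 7 high-count messengers at -0.43 to -0.204 and -0.477 to -0.264. Of 4694 alternative fits of single chrM genes, 44 passed the threshold, none of them on the other side of 0. The sign of values that were not called was less stable, and 49 of 145 changed it under at least 1 alternative, among them mt-Co3 in KO under vehicle, at -0.817 to 0.062. Leaving out each library moved the mt-Nd6 ratio to between -0.07 and 0.144 with T3 in WT and between -0.125 and 0.004 in KO. The fit with the sample number and all alternatives of the nuclear lists were chosen after seeing the data. The causes were not tested. No paired analysis was possible because replicate numbers follow accession order and pair nothing. The counts of 8 chrM genes were too low for a test.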
